A study of Homo sapiens with 8 samples.

Results

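The genes described here are the collagen chains and the enzymes, chaperones and proteases that modify, fold, trim and cross-link them. They were taken by symbol: every gene named COL, a number, A and a number, and 20 named modifier genes, in either of the deposited tables. This gave 44 of the 13703 genes listed in either table, 24 collagen chain genes and the 20 modifiers. The 143B table listed 37 of them among 12700 genes and that of HOS listed 42 among 12810, and 35 stood in both. COL17A1 and COL4A5 were listed in 143B alone, and COL1A2, COL3A1, COL5A3, COL7A1, COL11A1, COL16A1 and LOXL4 in HOS alone. Of 44 collagen chain genes in the RefSeq annotation, 20 were listed in neither table, among them the cartilage genes COL2A1 and COL10A1.

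Polyadenylated RNA was sequenced from 143B and HOS, established human osteosarcoma lines of which 143B is a transformed derivative of HOS. Each line had a control group (NC) and a group labelled sgNAT10, which the submitters call knockout cells, with 2 libraries in each of the 4 groups. NAT10 acetylates cytidines of RNA. The labels name no further treatment, and they do not say whether the sgNAT10 cells were 1 clone or a pool, which guide was used, or whether replicate libraries were grown as separate cultures. The p-values therefore measure the spread between these libraries, which may be technical.

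Collagens are trimers of chains whose Gly-X-Y repeats wind into a triple helix. In the endoplasmic reticulum, prolyl and lysyl residues of the chains are hydroxylated and some hydroxylysines glycosylated, while chaperones hold the folding helix. After secretion, proteases trim the ends of fibrillar procollagens, and lysyl oxidases start the cross-links that make the matrix insoluble. Bone matrix is built mainly on type I collagen, and cells of the osteoblast lineage, from which osteosarcoma is thought to arise, secrete it.

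The label check gave different answers in the 2 lines. Levels are in FPKM (sequenced fragments counted relative to transcript length and library size, so that levels of different genes can be compared). The 143B controls had 16.1 and 20.0 FPKM of NAT10, and the 143B sgNAT10 libraries 9.05 and 7.19 (limma log2 -1.06, SE 0.31, adjusted p = 0.0259). The HOS controls had 14.9 and 16.2 FPKM, and the HOS libraries labelled sgNAT10 had 21.1 and 19.1 (limma log2 0.35, SE 0.10, adjusted p = 0.00544). The HOS label thus goes with more NAT10 RNA, not less, and every HOS direction given here is that of libraries so labelled. All 10 markers of mesenchymal and osteosarcoma cells fixed for this purpose, VIM and RUNX2 among them, were listed in both lines. By control means, 4 of them stood above 10 FPKM in 143B and 8 in HOS. In 143B, RUNX2 (0.38 and 1 FPKM in NC) and PDGFRB (0.72 and 0.72) were too low to test. In each line 2 of 9 chondrocyte markers were listed. Of 8 blood cell markers, 3 were listed in each line, CD14, CD68 and LYZ, and PTPRC was not. Of 6 fibroblast markers, 1 was listed in 143B and 5 in HOS. Read depth is unknown. The sum of the listed FPKM ranged from 484793 to 798137, and log2 values of the libraries of a group correlated (Pearson, across genes) at 0.979 to 0.986 in 143B and at 0.995 to 0.997 in HOS. In these cultures, fewer cells of a type and less RNA per cell cannot be told apart.

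In 143B most of the collagen set was lower in the sgNAT10 libraries, and in HOS most of it was higher in those so labelled. Changes are given on the log2(FPKM + 1) scale, sgNAT10 minus NC, and were called by limma at a Benjamini-Hochberg adjusted p below 0.05 over all genes tested in a line. In 143B, 35 members were tested, of which 19 fell, 1 rose and 15 were not called. Over all 11419 genes tested there, 25.4% were called lower and 12.9% higher. In HOS, 42 members were tested, of which 24 rose, 7 fell and 11 were not called, against 45.5% of 11957 genes called higher and 23.0% called lower. With median-ratio scaling the HOS split was 17 rises and 10 falls, and the calls of COL4A2, COL16A1, COL18A1, LOXL4, P3H3, PCOLCE and PLOD2 were lost. When 1 spread per gene was estimated from all 8 libraries, 6 HOS rises and 2 falls were called among the members testable in each table. In either direction, 7800 of 11957 HOS genes were called with median-ratio scaling and 1864 of 10655 with that shared spread. The members' median change was -0.83 in 143B and 0.37 in HOS, beside -0.25 and 0.19 for all genes tested. The HOS count therefore lay near the share of all genes called, whereas in 143B the share of members that fell was above that of all genes.

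The lines were also compared directly, as the 143B change minus the HOS change in 1 fit of all 8 libraries. Of 34 members tested, the difference was called below 0 in 22 and above 0 in 1, PPIB, against 36.2% and 12.9% of 10655 genes. The median difference was -1.31 for the members and -0.44 for all genes. By single calls, 11 members fell in 143B and rose in HOS: COL4A2, COL5A1, COL6A3, COL12A1, COL13A1, COL18A1, CRTAP, LOXL2, PCOLCE, PLOD1 and PLOD3. COL9A3 and P4HA2 fell in both lines, and COL8A1 rose in both. A further 6 fell in 143B and were not called in HOS, 8 were not called in 143B and rose in HOS, and 3 were not called in 143B and fell in HOS.

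**Figure D1:**
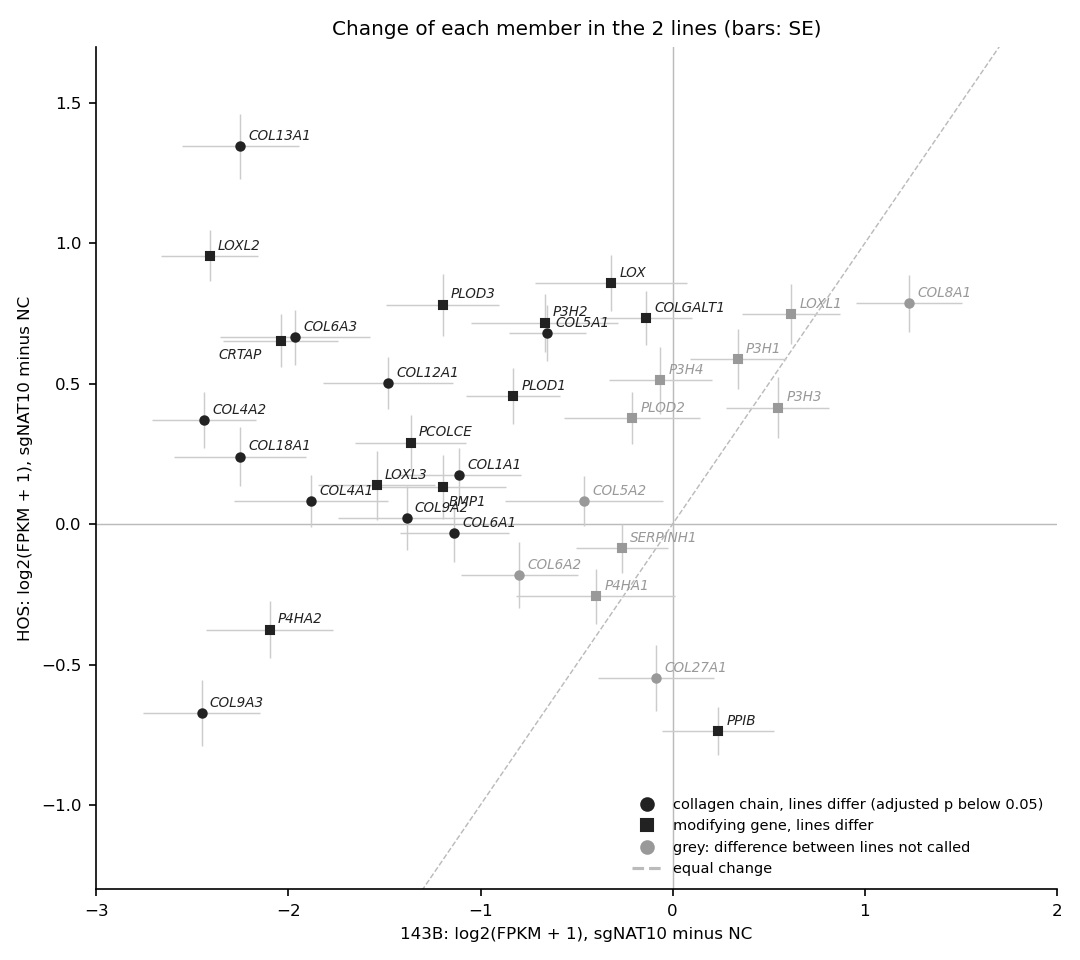
Log2(FPKM + 1) change of the 34 members tested in both lines, 143B on the horizontal axis and HOS on the vertical, circles for collagen chains and squares for modifying genes, bars 1 SE of each line's own fit, grey where the difference between the lines was not called. LOXL2 and COL13A1 lie farthest to the upper left, COL9A3 and P4HA2 at the lower left, COL8A1 at the upper right and PPIB at the lower right.

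The plot of change in HOS against change in 143B shows the modifying genes spread across the same range as the chains in 143B, and mostly above 0 in HOS. LOXL2, a lysyl oxidase family enzyme, and COL13A1, a transmembrane collagen, had the largest differences between the lines. The dashed line of equal change has most members above it, to the left.

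The control cells of the lines differed in which collagens they listed and at what level. The tables were made separately, so these levels are set side by side without a test. Summed over the listed chains, collagen FPKM was 288 ± 8.87 (SD, n = 2) in 143B NC and 938 ± 108 in HOS NC, or 0.0463% ± 0.00453 and 0.165% ± 0.0159 of all listed FPKM. COL6A2, a chain of the microfibrillar collagen VI, was the highest chain in every 143B library, and COL1A1, the main chain of type I collagen, in every HOS library. COL6A2 held 35.8% and 29.6% of the collagen FPKM of the 143B controls. COL1A1 held 36.4% and 37.1% of that of the HOS controls.

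The largest gap between the control cells lay in the chains of types I and III. COL1A1 stood at 3.84 and 5.44 FPKM in 143B NC, rank 7145 of the table, and at 314 and 376 FPKM in HOS NC, rank 214. COL1A2 and COL3A1, which join it in fibrils of bone and soft tissue, were listed in HOS alone, at 68.6 and 82.2 FPKM and at 96.1 and 110 FPKM in the controls. COL13A1, COL9A2 and COL9A3 went the other way. COL13A1 stood at 24.3 and 26.4 FPKM in 143B NC and at 1.73 and 2.18 in HOS NC, and COL9A3 at 24.3 and 26.2 against 9.47 and 11.6. Levels of the modifiers were close for some genes and apart, in either direction, for others. Control means of PLOD2 were 12.8 FPKM in 143B and 50.2 in HOS, and those of PLOD3 were 55.3 and 17.1. PPIB, cyclophilin B, was the highest member in both lines, at 947 ± 159 (SD, n = 2) FPKM in 143B NC and 881 ± 81.8 in HOS NC. SERPINH1, the collagen chaperone HSP47, stood at 101 ± 12.9 and 139 ± 12.6. In 143B the chaperone thus stood far above the type I chain COL1A1 per length, whereas in HOS it stood below.

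In the libraries labelled sgNAT10, summed collagen FPKM was 108 ± 22.2 in 143B and 1076 ± 63.2 in HOS. Its share of listed FPKM was 0.0137% ± 0.00254 in 143B, with both libraries below both controls, and 0.220% ± 0.0159 in HOS, with both above. With 2 libraries against 2 an exact permutation test cannot give a two-sided p below 0.33. COL6A2 made up 57.6% and 43.3% of the collagen FPKM of the 143B sgNAT10 libraries, above both controls, and COL1A1 37.6% and 34.5% of that of HOS. Without ribosomal protein genes and the MTRNR2L copies of mitochondrial ribosomal RNA in the sum, the share was 0.0598% and 0.0674% in 143B NC and 0.0275% and 0.0206% in sgNAT10, and 0.220% and 0.253% against 0.292% and 0.266% in HOS.

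**Figure D2:**
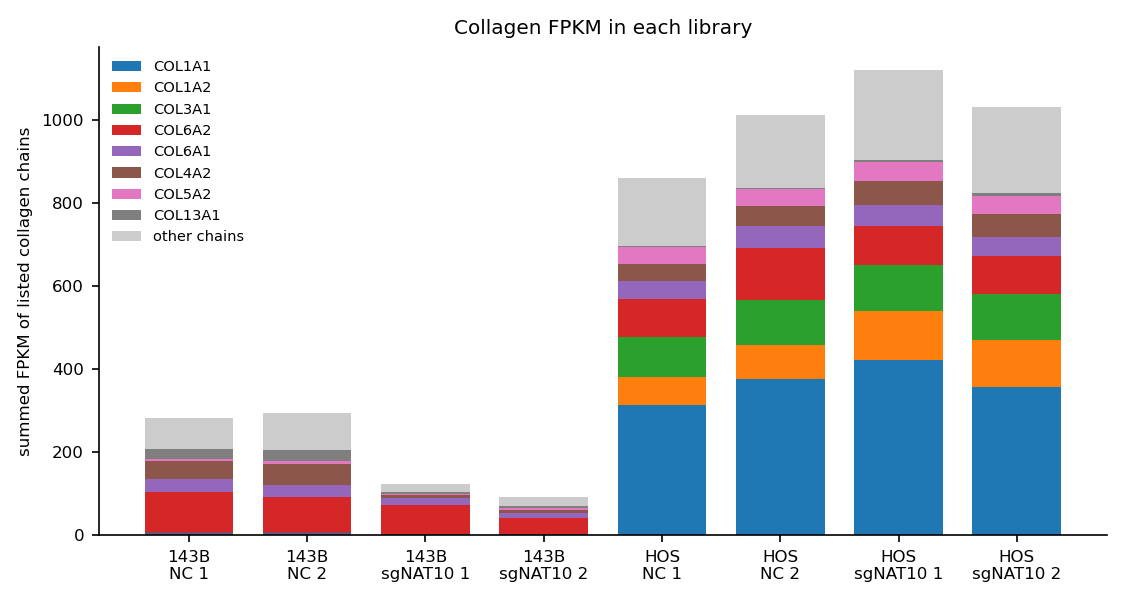
Summed FPKM of the listed collagen chains in each of the 8 libraries, divided by chain, bars starting at 0. The 143B sums fall from 282 and 294 in NC to 124 and 92.4 in sgNAT10, and the HOS sums of 861 to 1121 are held largely by COL1A1, COL3A1, COL6A2 and COL1A2.

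The stacked sums by library show the small collagen output of 143B beside that of HOS. In HOS the sums were 861 and 1014 FPKM in NC and 1121 and 1032 in the libraries labelled sgNAT10. The latter lay above the higher control by less than the controls differed from each other.

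Fibrillar collagens form the striated fibrils of bone, skin and tendon. Of 4 tested in 143B, COL1A1 and COL5A1 fell and COL5A2 and COL27A1 were not called. COL1A1 went from 3.84 and 5.44 FPKM to 1.87 and 1.32 in 143B (log2 -1.11, SE 0.32, adjusted p = 0.0250), with no overlap. In HOS it was at 421 and 356 FPKM in sgNAT10, 1 library above and 1 within the control range of 314 to 376 (log2 0.17, SE 0.10, adjusted p = 0.129), and the difference between lines was -1.29 (SE 0.31, adjusted p = 0.00742).

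COL1A2 rose in HOS, from 68.6 and 82.2 to 119 and 113 FPKM (log2 0.62, SE 0.10, adjusted p = 2.7e-05). The ratio of COL1A1 to COL1A2, which are assembled together into type I procollagen, was 4.57 in both HOS controls and 3.55 and 3.15 in the libraries labelled sgNAT10. COL3A1, a fibrillar chain of elastic tissues, had 111 and 112 FPKM there against 96.1 and 110 in the controls (adjusted p = 0.259). The sgNAT10 values of COL3A1 lay above the higher control by less than the controls differed from each other.

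Type V collagen, which seeds and narrows type I fibrils, moved by chain in HOS. COL5A1 went from 1.27 and 1.63 to 0.54 and 0.57 FPKM in 143B (log2 -0.65, SE 0.20, adjusted p = 0.0327) and from 13.0 and 14.1 to 23.4 and 21.3 FPKM in HOS (log2 0.68, SE 0.10, adjusted p = 1.91e-05). The difference between lines was -1.33 (SE 0.26, adjusted p = 0.00297). COL5A2 was not called in either line, at a log2 change of -0.46 (SE 0.41) in 143B and 0.08 in HOS. The ratio of COL5A2 to COL5A1 in HOS was 3.26 and 2.95 in NC and 1.91 and 2.08 in sgNAT10. In 143B it was 3.58 and 4.26 in NC and 4.65 and 9.86 in sgNAT10. With 1 FPKM added to each chain, the 143B ratio was 2.44 and 3.02 against 2.28 and 4.22, which overlapped. COL5A3 rose in HOS (log2 0.49), and the minor fibrillar chains COL11A1 and COL27A1 fell there (log2 -0.53 and -0.55).

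Collagen IV forms the network of basement membranes, from COL4A1 and COL4A2 chains in most tissues. The genes lie head to head on chromosome 13, and the 126 bases between their start sites are shown because both chains share them. They are given on the plus strand of GRCh38.p14, chr13:110307158-110307283, from RefSeq, with a CCAAT box and a GC box (GGGCGG) in capitals.
COL4A1-COL4A2: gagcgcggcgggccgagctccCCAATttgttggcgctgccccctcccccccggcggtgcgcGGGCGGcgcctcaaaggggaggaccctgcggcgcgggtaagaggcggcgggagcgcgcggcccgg
In 143B both chains fell. COL4A2 went from 43.7 and 50.01 to 7.97 and 7.62 FPKM, 6.01-fold lower (log2 -2.44, SE 0.27, adjusted p = 0.00106), and COL4A1 from 7.41 and 14.4 to 1.68 and 2.56 FPKM (log2 -1.88, SE 0.40, adjusted p = 0.00745). Neither pair of groups overlapped. In HOS, COL4A2 went from 39.7 and 47.1 to 57.9 and 54.5 FPKM (log2 0.37, SE 0.10, adjusted p = 0.00308), and COL4A1 from 28.6 and 29.5 to 31.2 and 30.4 FPKM (log2 0.08, SE 0.09, adjusted p = 0.440). The HOS call of COL4A2 was lost with median-ratio scaling and without HOS sgNAT10 replicate 1. The differences between lines were -2.81 (SE 0.25, adjusted p = 9.92e-05) for COL4A2 and -1.97 (SE 0.41, adjusted p = 0.00389) for COL4A1. COL4A2 stood above COL4A1 in all 8 libraries, by 2.98 to 5.89 times in 143B and 1.39 to 1.86 times in HOS. COL4A5, a chain of specialised basement membranes, was listed in 143B alone and was too low to test, at 0.23 to 0.76 FPKM.

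Collagen VI forms beaded microfilaments that link cells to the surrounding matrix, from COL6A1, COL6A2 and COL6A3. COL6A3 went from 8.05 and 13.6 to 1.42 and 2.56 FPKM in 143B (log2 -1.97, SE 0.39, adjusted p = 0.00568) and from 12.4 and 12.4 to 20.5 and 20.0 FPKM in HOS (log2 0.67, SE 0.10, adjusted p = 1.74e-05). COL6A1 went from 31.3 and 28.7 to 15.4 and 11.1 FPKM in 143B (log2 -1.14, SE 0.29, adjusted p = 0.0143) and was at 45.1 and 53.8 against 50.9 and 45.6 in HOS (log2 -0.03, adjusted p = 0.786). COL6A2, at 101 and 87.0 against 71.3 and 40.0 FPKM, lay lower in both 143B sgNAT10 libraries but missed the threshold (log2 -0.80, SE 0.31, adjusted p = 0.0681). The 3 chains of the same filament thus did not change to the same extent: the ratio of COL6A1 to COL6A3 was 3.89 and 2.12 in 143B NC and 10.8 and 4.35 in sgNAT10, and in HOS it was 3.65 and 4.33 in NC and 2.49 and 2.28 in sgNAT10. The groups of this ratio did not overlap in either line. With 1 FPKM added to each chain, the ratio was 3.57 and 2.04 in 143B NC and 6.76 and 3.41 in sgNAT10, which overlapped, and in HOS it was 3.45 and 4.08 against 2.42 and 2.22, which did not. The difference between lines was -2.63 (SE 0.39, adjusted p = 0.000737) for COL6A3 and -1.10 (SE 0.29, adjusted p = 0.0117) for COL6A1.

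The network-forming COL8A1 was the exception among the chains of 143B. COL8A1, a short chain of vascular and corneal membranes, went from 0.82 and 1.22 to 3.83 and 3.61 FPKM in 143B (log2 1.23, SE 0.28, adjusted p = 0.00927) and from 9.88 and 9.14 to 17.2 and 17.0 FPKM in HOS (log2 0.79, SE 0.10, adjusted p = 4.54e-06). It rose in both lines, 3.65-fold and 1.80-fold in mean FPKM, and the difference between them was not called (0.44, SE 0.27, adjusted p = 0.204). Leaving out either 143B sgNAT10 library ended the 143B call.

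COL18A1, whose C-terminal fragment is endostatin, went from 17.1 and 16.7 to 3.45 and 2.17 FPKM in 143B (log2 -2.25, SE 0.34, adjusted p = 0.00243). In HOS it was at 28.8 and 35.0 against 39.1 and 36.3 FPKM, a change just past the threshold (log2 0.24, SE 0.10, adjusted p = 0.0476). That call was lost with a pseudocount of 0.1, with median-ratio scaling and without any of 3 of the 4 HOS libraries. COL7A1, the anchoring fibril collagen listed in HOS alone, fell from 4.32 and 5.26 to 2.11 and 2.06 FPKM (log2 -0.90, SE 0.12, adjusted p = 4.68e-06). COL8A2 was too low to test in 143B, at 0.61 and 0.63 FPKM in NC and 0.07 and 0.09 in sgNAT10.

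The fibril-associated collagens, which sit on the surface of fibrils, all fell in 143B, 3 of 3 tested. COL9A3, a chain of the cartilage collagen IX, went from 24.3 and 26.2 to 3.6 and 4 FPKM there (log2 -2.45, SE 0.31, adjusted p = 0.0014). It also fell in HOS, from 9.47 and 11.6 to 5.86 and 6.60 FPKM (log2 -0.67, SE 0.12, adjusted p = 9.2e-05), and the fall was larger in 143B by 1.78 (SE 0.28, adjusted p = 0.000983). Its partner COL9A2 went from 9.25 and 6.74 to 3.01 and 1.90 FPKM in 143B (log2 -1.39, SE 0.36, adjusted p = 0.0161) and was at 2.73 and 3.09 against 2.83 and 3.10 in HOS (adjusted p = 0.878). The third chain of type IX, COL9A1, was listed in neither table. COL12A1, which decorates type I fibrils, fell from 1.88 and 4.59 to 0.25 and 0.65 FPKM in 143B (log2 -1.48) and rose from 27.4 and 24.9 to 37.5 and 37.3 FPKM in HOS (log2 0.50). In both 143B groups the second library had the higher COL12A1, COL4A1 and COL6A3 values.

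COL13A1 is a transmembrane collagen of cell-matrix contacts. Its upstream region is printed because the gene moved far in opposite directions: 250 bases before the RefSeq start site, plus strand, GRCh38.p14 chr10:69801656-69801905, with a TATAAA match in capitals.
COL13A1: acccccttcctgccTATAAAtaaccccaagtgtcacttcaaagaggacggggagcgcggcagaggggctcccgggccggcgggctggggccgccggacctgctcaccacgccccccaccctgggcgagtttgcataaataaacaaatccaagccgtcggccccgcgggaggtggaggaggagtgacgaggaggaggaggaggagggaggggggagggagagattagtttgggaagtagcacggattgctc
COL13A1 went from 24.3 and 26.4 to 4.12 and 4.97 FPKM in 143B, 5.57-fold lower (log2 -2.25, SE 0.30, adjusted p = 0.0017), and from 1.73 and 2.18 to 6.51 and 6.47 FPKM in HOS, 3.32-fold higher (log2 1.35, SE 0.12, adjusted p = 7.75e-08). The control levels of the lines lay far apart, whereas the levels in libraries labelled sgNAT10 lay in both lines between 4.12 and 6.51 FPKM. The difference in change was -3.60 (SE 0.28, adjusted p = 6.58e-05), the largest of the members. COL17A1, the transmembrane collagen of epithelial hemidesmosomes, was listed in 143B alone at 0.86 to 1.06 FPKM and was not called.

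**Figure D3:**
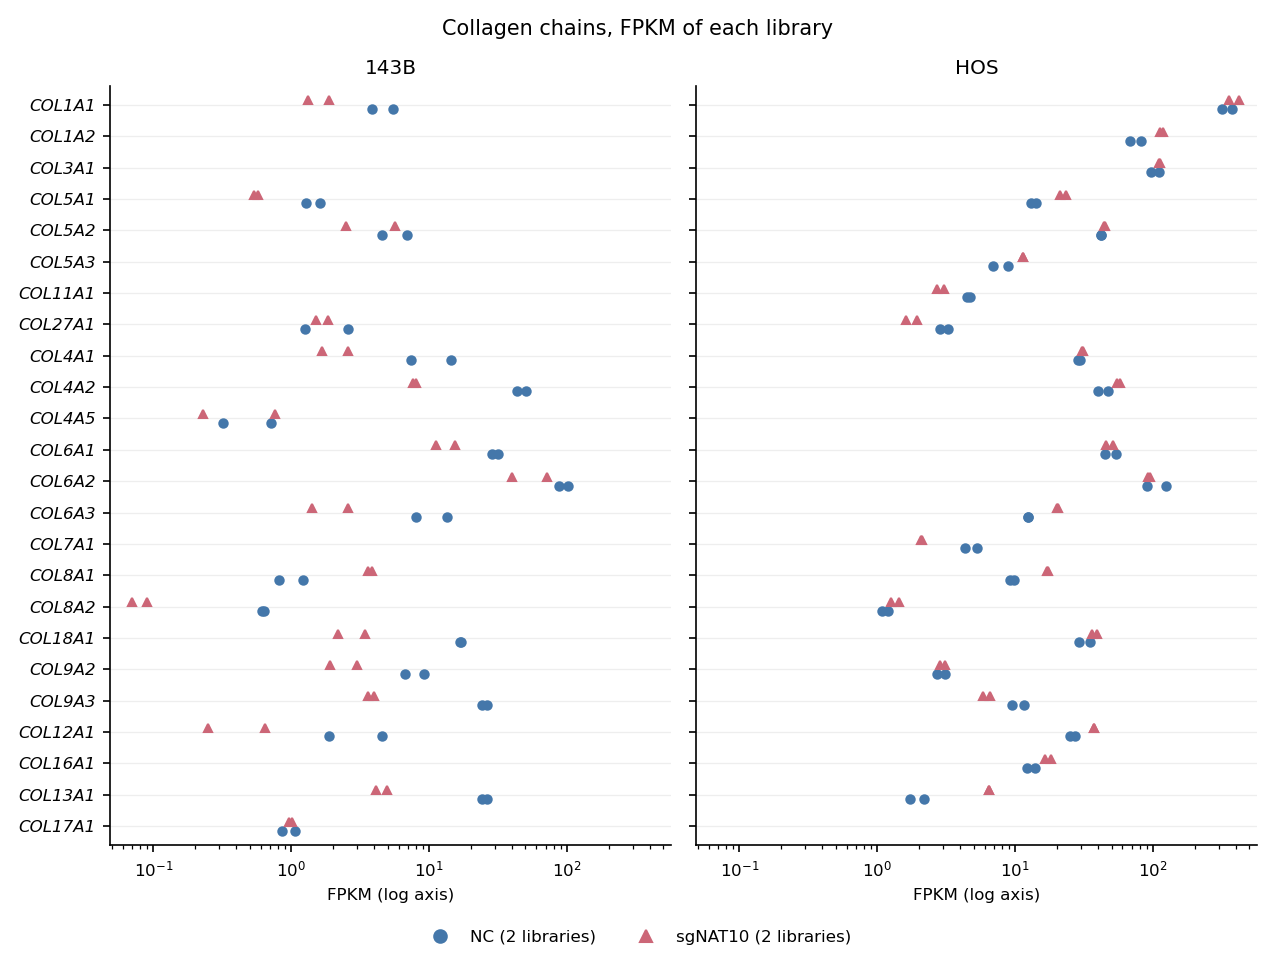
FPKM of the 24 listed collagen chains in each library on a log axis, 143B left and HOS right, blue circles for NC and red triangles for sgNAT10, no points where a chain is not listed. In 143B the triangles of COL4A1, COL4A2, COL9A3, COL13A1 and COL18A1 lie well left of the circles, while in HOS the 2 groups of most chains lie close together and COL13A1 and COL8A1 lie to the right.

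The dot plot of the chains shows that the spread within a 143B group was wider for COL5A2, COL12A1 and COL27A1 than for COL4A2 or COL13A1, and that most HOS pairs were close. COL1A1 was the highest chain in every HOS library.

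Prolyl 4-hydroxylase makes the 4-hydroxyproline that stabilises the triple helix, and P4HA1 and P4HA2 are its catalytic subunits. The upstream region of P4HA2 is shown as that of 1 of the members that fell in both lines: 250 bases before its start, minus strand, GRCh38.p14 chr5:132227092-132227341, with reversed CCAAT boxes (ATTGG) in capitals.
P4HA2: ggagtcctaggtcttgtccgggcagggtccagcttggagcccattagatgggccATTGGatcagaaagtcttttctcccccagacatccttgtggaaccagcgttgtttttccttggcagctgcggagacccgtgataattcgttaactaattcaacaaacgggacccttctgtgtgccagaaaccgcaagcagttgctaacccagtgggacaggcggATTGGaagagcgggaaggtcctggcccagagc
P4HA2 went from 11.6 and 13.5 to 2.12 and 2.18 FPKM in 143B, 5.82-fold lower (log2 -2.10, SE 0.33, adjusted p = 0.00273). In HOS it went from 15.3 and 16.6 to 12.0 and 12.1 FPKM (log2 -0.38, SE 0.10, adjusted p = 0.00349). The fall was larger in 143B by 1.72 (SE 0.27, adjusted p = 0.000918). P4HA1 was not called in 143B (log2 -0.40, adjusted p = 0.478) and fell in HOS (log2 -0.26, adjusted p = 0.0264). Both HOS calls were lost on rescaling to a common sum and without sgNAT10 replicate 1 or 2.

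Prolyl 3-hydroxylation of single prolines in the helix is carried out by P3H1 in a complex with CRTAP, cartilage-associated protein, and PPIB. The 250 bases upstream of CRTAP, plus strand, GRCh38.p14 chr3:33113764-33114013, are shown because CRTAP alone of this group fell in 143B, with GC boxes in capitals (GGGCGG, or CCGCCC on the other strand).
CRTAP: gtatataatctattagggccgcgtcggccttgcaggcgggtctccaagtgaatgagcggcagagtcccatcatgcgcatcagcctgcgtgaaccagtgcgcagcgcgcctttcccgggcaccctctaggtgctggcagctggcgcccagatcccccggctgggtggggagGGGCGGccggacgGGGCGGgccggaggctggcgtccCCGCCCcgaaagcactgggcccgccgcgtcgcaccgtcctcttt
CRTAP went from 32.7 and 42.3 to 7.16 and 9.57 FPKM in 143B, 4.49-fold lower (log2 -2.04, SE 0.30, adjusted p = 0.0021), and from 27.5 and 30.5 to 47.5 and 44.8 FPKM in HOS (log2 0.65, SE 0.09, adjusted p = 1.44e-05). The difference was -2.70 (SE 0.29, adjusted p = 0.000195). In 143B its partners in the complex were not called. P3H1 stood at 31.6 and 28.2 against 35.9 and 40.2 FPKM in 143B (log2 0.34, adjusted p = 0.318) and rose in HOS (log2 0.59). PPIB stood at 1059 and 835 against 1205 and 1021 FPKM in 143B (log2 0.24, adjusted p = 0.554) and fell in HOS from 823 and 939 to 514 and 540 FPKM (log2 -0.74, SE 0.08, adjusted p = 1.36e-06). PPIB was the 1 member whose change was called higher in 143B than in HOS (0.98, SE 0.26, adjusted p = 0.0117). That call was lost on rescaling to a common sum, with quantile normalization, and without HOS NC replicate 2 or HOS sgNAT10 replicate 1.

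P3H2, the 3-hydroxylase that acts mainly on basement membrane collagen, stood at 5.6 and 10.7 against 4.46 and 4.64 FPKM in 143B (adjusted p = 0.201) and rose from 8.17 and 8.81 to 14.5 and 14.7 FPKM in HOS (log2 0.72, SE 0.10, adjusted p = 1.33e-05). The difference was -1.38 (SE 0.38, adjusted p = 0.0145). P3H3 and P3H4, which take part in lysyl hydroxylation of the chains, rose in HOS (log2 0.41 and 0.51) and were not called in 143B (log2 0.55 and -0.06). In all, 5 of the 6 genes of this group rose in HOS, and 1 of 6 was called in 143B.

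Lysyl hydroxylases prepare chains for glycosylation and cross-linking, and COLGALT1 adds galactose to hydroxylysine. All 4 of these genes rose in HOS, by log2 0.38 (PLOD2) to 0.78 (PLOD3). PLOD3 went from 60.4 and 50.1 to 29.5 and 18.6 FPKM in 143B (log2 -1.20, SE 0.29, adjusted p = 0.0131) and from 15.0 and 19.2 to 30.5 and 29.4 FPKM in HOS (log2 0.78, SE 0.11, adjusted p = 1.17e-05). PLOD1, which acts on the helix, went from 76.9 and 64.6 to 41.4 and 37.1 FPKM in 143B (log2 -0.83, SE 0.24, adjusted p = 0.0271) and from 29 and 34.4 to 45.5 and 42.0 FPKM in HOS (log2 0.46, SE 0.10, adjusted p = 0.000738). The groups of PLOD1 and PLOD3 did not overlap in either line. The 143B call of PLOD1 was lost with median-ratio scaling, with quantile normalization and with the length and GC correction.

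PLOD2, the hydroxylase of the telopeptide ends, was at 9.33 and 16.4 against 9.34 and 12.0 FPKM in 143B (adjusted p = 0.673) and went from 53.5 and 47.0 to 63.8 and 67.2 in HOS (log2 0.38, SE 0.09, adjusted p = 0.00175), a call lost without HOS sgNAT10 replicate 2. COLGALT1 was at 52.1 and 46.9 against 44.8 and 44.8 FPKM in 143B (adjusted p = 0.678) and went from 23.2 and 26.2 to 42.3 and 41.0 in HOS (log2 0.73, SE 0.10, adjusted p = 5.09e-06). The change differed between the lines for COLGALT1 (-0.87, adjusted p = 0.0134), PLOD1 (-1.29, adjusted p = 0.00314) and PLOD3 (-1.98, adjusted p = 0.0016), and was not called for PLOD2 (-0.59, SE 0.36, adjusted p = 0.208).

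SERPINH1, the chaperone HSP47 that binds only folded procollagen, was called in neither line. It stood at 110 and 91.6 against 87.6 and 79.4 FPKM in 143B (log2 -0.26, SE 0.24, adjusted p = 0.416), and at 130.07 and 148 against 129.95 and 131 FPKM in HOS (log2 -0.09, SE 0.09, adjusted p = 0.396). The difference between the lines was -0.18 (SE 0.24, adjusted p = 0.567). It was called lower in 143B on rescaling to a common sum, and lower in HOS with median-ratio scaling or the length and GC correction.

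Of the C-terminal processing genes, BMP1 is the procollagen C-proteinase and PCOLCE its enhancer. PCOLCE went from 132.5 and 102 to 56.1 and 35.4 FPKM in 143B (log2 -1.36, SE 0.29, adjusted p = 0.00751) and from 159 and 202 to 224 and 215 FPKM in HOS (log2 0.29, SE 0.10, adjusted p = 0.0161). Its HOS call was lost with median-ratio scaling and without NC replicate 1 or sgNAT10 replicate 1. BMP1 went from 9.26 and 9.02 to 3.43 and 3.42 FPKM in 143B (log2 -1.20, SE 0.33, adjusted p = 0.0204) and was at 14.1 and 17.4 against 18.4 and 16.2 in HOS (adjusted p = 0.312). The differences between the lines were -1.65 (SE 0.34, adjusted p = 0.00387) for PCOLCE and -1.33 (SE 0.28, adjusted p = 0.00413) for BMP1.

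The lysyl oxidases convert lysines to the aldehydes from which cross-links form. LOXL2, which acts on collagen IV among others, went from 66.2 and 70.0 to 11.5 and 12.5 FPKM in 143B, 5.68-fold lower (log2 -2.41, SE 0.25, adjusted p = 0.000976), and from 55.5 and 63.8 to 119 and 114 FPKM in HOS, 1.95-fold higher (log2 0.96, SE 0.09, adjusted p = 2.34e-07). Control levels of LOXL2 were close in the lines, and the libraries labelled sgNAT10 lay far apart. The difference in change was -3.37 (SE 0.23, adjusted p = 4.59e-05).

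LOXL3 fell in 143B, from 6 and 4.85 to 1.26 and 1.14 FPKM (log2 -1.54, SE 0.30, adjusted p = 0.00551), and was at 2.60 and 3.18 against 3.64 and 2.93 in HOS (adjusted p = 0.325). LOX, the founding member, was at 2.42 and 4.58 against 1.66 and 3.60 FPKM in 143B (adjusted p = 0.555) and went from 10.3 and 10.2 to 19.8 and 19.1 in HOS (log2 0.86, SE 0.10, adjusted p = 1.54e-06). LOXL1, which acts on elastin, was at 41.8 and 31.6 against 56.7 and 55.9 FPKM in 143B (log2 0.62, SE 0.26, adjusted p = 0.0859) and went from 48.8 and 62.5 to 97.5 and 89.6 in HOS (log2 0.75, SE 0.11, adjusted p = 1.24e-05). LOXL1 was thus higher in all 4 libraries labelled sgNAT10 than in the controls of the same line, though past the threshold in HOS alone, and the difference between lines was -0.13 (SE 0.28, adjusted p = 0.725). The difference was -1.68 (SE 0.26, adjusted p = 0.000855) for LOXL3 and -1.18 (SE 0.44, adjusted p = 0.0494) for LOX. For LOX that call, just past the threshold, was lost with a pseudocount of 0.1, median-ratio scaling, robust moderation or the length and GC correction. LOXL4, listed in HOS alone, rose there (log2 0.41), so that 4 of 5 lysyl oxidases rose in HOS and 2 of 4 fell in 143B.

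**Figure D4:**
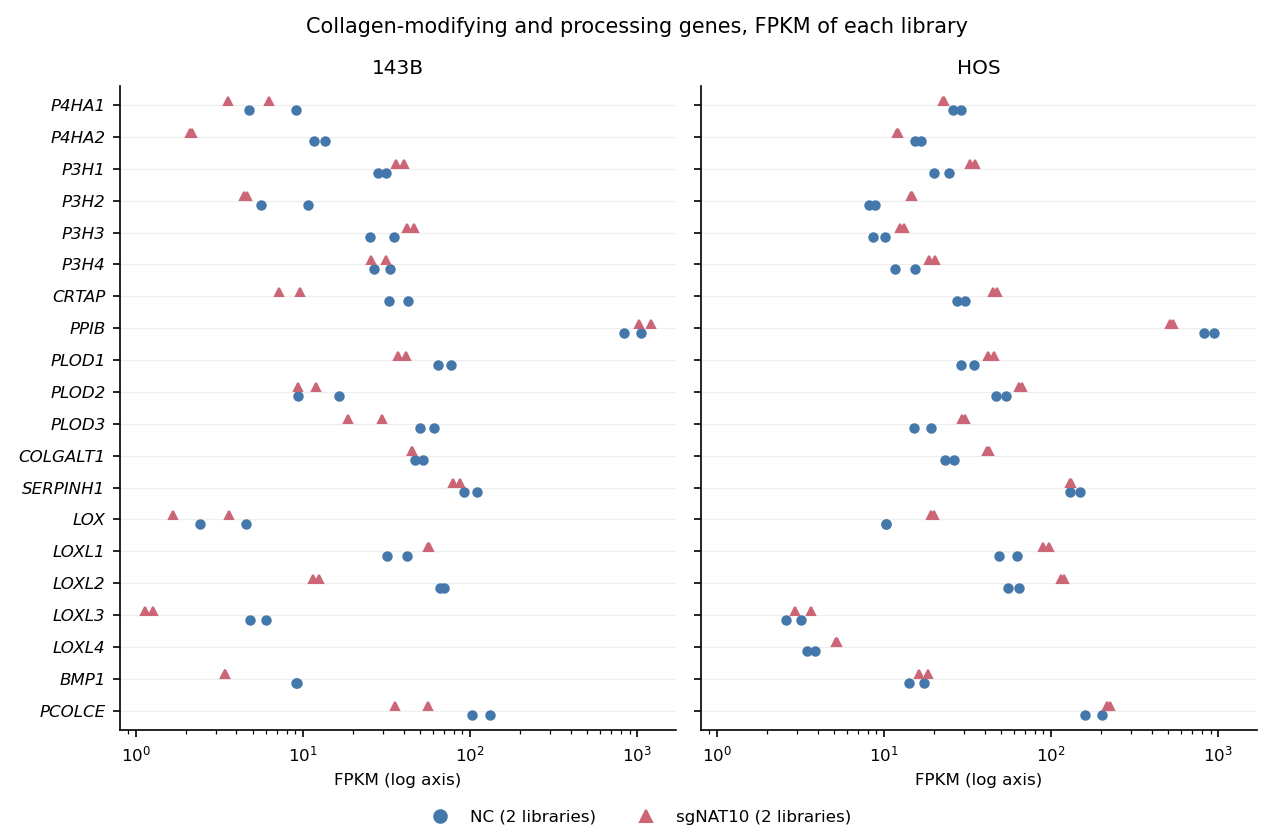
FPKM of the 20 collagen-modifying and processing genes in each library on a log axis, 143B left and HOS right, blue circles for NC and red triangles for sgNAT10. LOXL2, CRTAP and P4HA2 lie left of their controls in 143B, LOXL2 and CRTAP lie right of them in HOS, and PPIB is the highest gene in every library.

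The dot plot of the modifiers shows SERPINH1, P3H4 and COLGALT1 of 143B with their groups close together. Among the chains, 11 of 16 tested fell in 143B, and among the modifiers 8 of 19, with median changes of -1.26 and -0.40. In HOS, 10 of 22 chains rose and 4 fell, and 14 of 20 modifiers rose and 3 fell, with median changes of 0.15 and 0.44, beside the 45.5% and 23.0% of all genes. With median-ratio scaling, 7 HOS chains rose and 6 fell (median -0.03) and 10 modifiers rose and 4 fell. Values were also corrected for the length and GC content of transcripts. On these, 3 HOS chains rose and 13 fell (median -0.28), and 9 modifiers rose and 6 fell. Over all HOS genes, calls in either direction numbered 7800 of 11957 with median-ratio scaling and 7799 of 11773 with the correction.

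The upstream windows of RefSeq, 250 bases before to 50 after a start site (GRCh38.p14), were searched on both strands for a few short motifs. A window was found for 34 of the 44 members, 41 windows in all. It was not found for BMP1, COL1A1, COL1A2, COL3A1, COL5A2, COL6A1, COL8A1, COL9A3, LOXL2 and P3H4. The GC box GGGCGG stood in 68.3% of the members' windows and 45% of all 35116 windows, and the CCAAT box in 29.3% and 34.6%. TATAAA stood in 14.6% and 11.5%, and the AP-1 motif TGACTCA in 0 of the members' windows and in 4.95% of all. These are matches of letters in a window and say nothing of binding.

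Genes that act around the collagens were taken from 7 lists, and their counts stand beside the same shares of all genes, 25.4% lower and 12.9% higher in 143B and 45.5% higher and 23.0% lower in HOS. Of 8 genes tested for collagen breakdown and its inhibition, 6 fell and none rose in 143B, and 5 rose and none fell in HOS. These 8 include the inhibitors TIMP1, TIMP2 and TIMP3. MMP1, the interstitial collagenase, went from 465 and 824 to 124 and 240 FPKM in 143B (log2 -1.84) and from 8.04 and 6.39 to 49.96 and 52.96 FPKM in HOS (log2 2.68). MMP14, the membrane collagenase, went from 53.3 and 58.1 to 6.56 and 5.42 FPKM in 143B and from 16.3 and 18.3 to 21.7 and 19.6 in HOS. TIMP3 and TIMP2, which inhibit these proteases, fell in 143B (log2 -1.32 and -1.09) and rose in HOS (log2 1.55 and 0.59). CTSL, MMP2 and TIMP1 were not called in HOS. With median-ratio scaling, and likewise with the length and GC correction, 3 of the 8 genes of this list rose and 1 fell in HOS. The difference between the lines was not tested for the genes of these lists.

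Of the matrix partners of collagen, 10 of 16 tested fell and 1 rose in 143B, and 16 of 20 rose and 2 fell in HOS. The HOS counts were 9 and 2 with median-ratio scaling and 5 and 5 with the length and GC correction. HSPG2, the basement membrane proteoglycan perlecan, went from 7.40 and 8.33 to 0.17 and 0.10 FPKM in 143B (log2 -2.96), LAMA5, a laminin chain, from 5.85 and 7.29 to 0.26 and 0.29 (log2 -2.56), and TGFBI from 62.6 and 86.2 to 10.7 and 12.5 (log2 -2.57). In HOS, LUM, the fibril proteoglycan lumican, fell from 75.6 and 66.6 to 24.6 and 25.7 FPKM (log2 -1.46). The fibroblast markers of HOS moved apart: PDGFRA, DCN, LUM and FAP, 4 of the 5 listed, fell and THY1 rose, and their summed FPKM went from 114 and 105 to 54.8 and 54.1. In 143B, PDGFRA was the 1 fibroblast marker listed, and fell from 1.77 and 5.31 to 0.32 and 0.42 FPKM. The part of other cell states in the collagen changes was not tested.

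Of the collagen receptors, 3 of 6 tested fell in 143B, DDR1 (log2 -2.41), MRC2 (log2 -2.23), which takes collagen up, and ITGA11 (log2 -1.19). In HOS, 4 of 8 rose, with ITGA11 at log2 1.001 and MRC2 at 0.48, and 2 fell, with ITGB1, the shared integrin beta chain, going from 326 and 272 to 159 and 171 FPKM (log2 -0.85). With the length and GC correction 1 receptor rose and 5 fell in 143B, and 2 rose and 3 fell in HOS. Of 20 genes of procollagen export, 5 fell and 1 rose in 143B, and 10 rose and 2 fell in HOS, shares near those of all genes. With median-ratio scaling 7 of the export genes rose and 6 fell in HOS, and with the length and GC correction 3 rose and 9 fell in 143B. CREB3L1, a membrane-bound transcription factor of secretory cells, fell in 143B (log2 -1.50) and rose in HOS (log2 0.52), and CREB3L2 did likewise (log2 -1.02 and 1.298). SEC23A, a coat protein of export vesicles, fell in 143B (log2 -1.57) and TFG fell there and rose in HOS (log2 -1.10 and 0.54).

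Of the other folding and modifying factors, 2 of 10 fell and 1 rose in 143B, and 6 of 11 rose and 2 fell in HOS, or 4 and 3 with median-ratio scaling. FKBP10, which assists telopeptide hydroxylation, went from 133 and 114 to 34.0 and 36.5 FPKM in 143B (log2 -1.78) and from 42.8 and 48.1 to 59.8 and 57.5 in HOS (log2 0.36). FKBP14 went the other way, rising in 143B (log2 1.12) and falling in HOS (log2 -0.30). SPARC, a collagen-binding chaperone of bone, fell in 143B (log2 -1.302) and was not called in HOS (log2 0.15), and COLGALT2 rose in HOS, where alone it was tested (log2 0.79). Of the N-terminal and other processing genes, FURIN (log2 -2.15), PCOLCE2 (log2 -1.53) and ADAMTS2 (log2 -0.83) fell in 143B, 3 of 3, and 2 of 3 rose in HOS, FURIN (log2 0.74) and PCOLCE2 (log2 0.70). Of the genes of proline synthesis, PYCR1 fell in 143B (log2 -0.99) and rose in HOS (log2 0.24), and ALDH18A1 rose in both lines (log2 0.92 and 0.59).

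Changes across all genes followed the base composition of transcripts in both lines, and in HOS also their length, and the members are GC-rich and long. The median GC content of tested members was 59.0% in 143B and 59.6% in HOS, against 51.1% and 49.9% for all genes tested. From the GC-poorest to the GC-richest of 4 equal classes of genes, the median log2 change was 0.18, -0.07, -0.54 and -0.76 in 143B and -0.15, 0.12, 0.36 and 0.33 in HOS. The median length of tested members was 2485 bases in 143B and 2717.5 in HOS, against 1744 and 1802 for all genes. A gene's length and GC content were medians over its annotated protein-coding transcripts, short ones included. LOXL2 thus stood at 754.5 bases and COLGALT1 at 654. Such a length may not be that of the transcript expressed, and the length classes and the correction rest on it. From the shortest to the longest of 4 classes, the median change was -0.12, -0.27, -0.35 and -0.28 in 143B and 0.02, 0.12, 0.23 and 0.41 in HOS. Each library was then corrected for transcript length and GC content, which also recentres it. After this, 8 members were called higher and 16 lower in 143B, and 12 higher and 19 lower in HOS. Over all genes, 6184 of 11224 were then called in either direction in 143B and 7799 of 11773 in HOS. Among the HOS members falls thus outnumbered rises after the correction, with a median of -0.07, beside -0.015 for all genes. In 143B the members' median was -0.37, beside -0.052 for all genes.

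After that correction, 15 of the 20 calls in 143B, 19 of the 31 in HOS and 17 of the 23 between the lines remained. The calls lost in 143B were COL1A1, COL5A1, COL6A1, BMP1 and PLOD1. In HOS they were COL1A2, COL4A2, COL5A1, COL5A3, COL6A3, COL12A1, COL18A1, CRTAP, LOXL4, P3H1, P3H3 and PCOLCE, and COL18A1 (-0.37) and COL5A3 (-0.19) were called lower instead. Between the lines they were BMP1, COL1A1, COL5A1, COL6A1, COLGALT1 and LOX. LOXL2 (corrected log2 -1.87 in 143B and 0.76 in HOS) and COL13A1 (-1.52 and 0.94) were called in opposite directions also after it, and COL9A3 (-1.69 and -1.02) and P4HA2 (-1.84 and -0.56) were called lower in both lines. Members not called before were called higher in 143B, among them LOXL1 (1.38), P3H3 (1.35) and P3H1 (1.05).

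**Figure D5:**
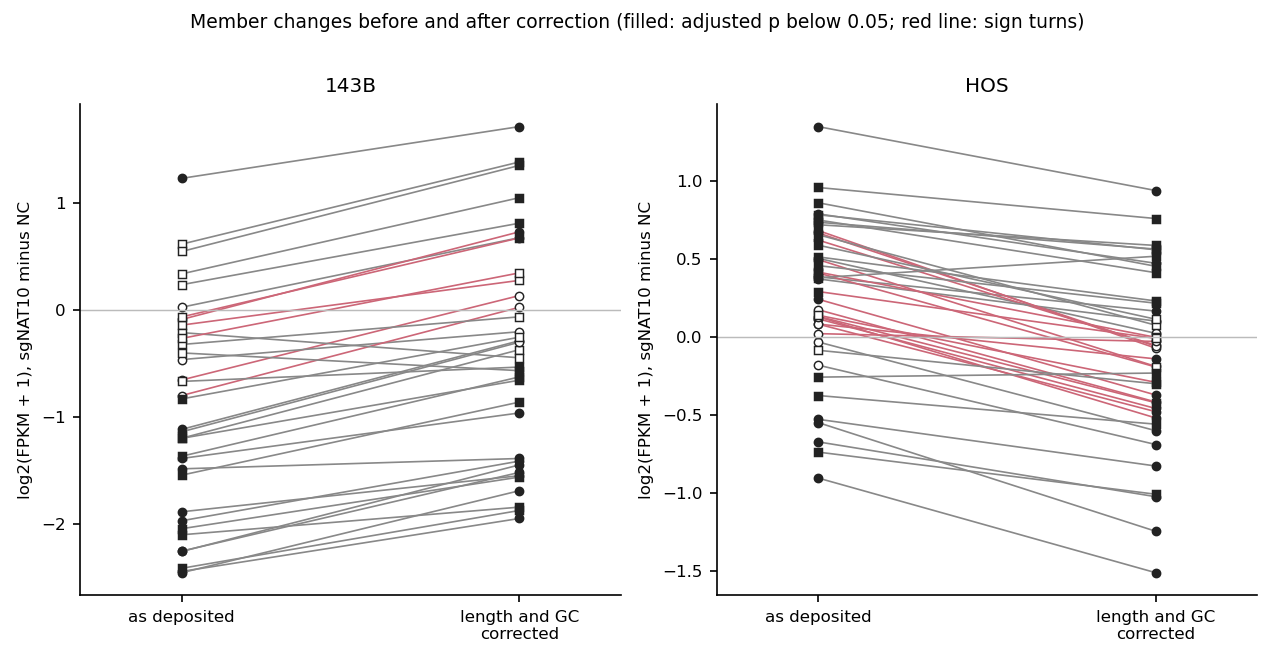
Log2(FPKM + 1) change of each tested member from the deposited values and after correction for transcript length and GC content, 143B left and HOS right, circles for chains and squares for modifiers, filled where the adjusted p was below 0.05, red lines where the sign turned. In HOS most members move down, and in 143B most move up.

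The slope plot of the correction shows LOXL2, COL4A2 and P4HA2 staying near the bottom of the 143B panel and COL13A1 at the top of the HOS panel. In 143B the count of falls also rested on both sgNAT10 libraries: without sgNAT10 replicate 1, and likewise without sgNAT10 replicate 2, 11 members were called lower in place of 19. Under all 17 alternatives run for 143B, 8 members kept their call, all lower: COL4A2, COL9A3, COL13A1, COL18A1, CRTAP, LOXL2, P4HA2 and PCOLCE. Under all 18 run for HOS, COL8A1, COL13A1, COLGALT1, LOXL1 and LOXL2 kept a call of higher and COL9A3 and PPIB of lower. Under all 20 for the difference between lines, 10 members kept theirs: COL4A1, COL4A2, COL6A3, COL9A3, COL13A1, COL18A1, CRTAP, LOXL2, P4HA2 and PLOD3.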

How the data were processed

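RNA of 8 libraries (143B and HOS, NC and sgNAT10, 2 each) was analysed. The authors deposited FPKM values in a separate table for each line. Bowtie2, RSEM, DESeq2 and GRCh38 appear in the submitters' processing notes, without roles or versions. Which annotation release was used is not stated in the labels or headers. Each listed gene has over 0.5 FPKM in at least 2 libraries. After taking log2(FPKM + 1), limma 3.58.1 (R 4.3.3) was fitted with an intensity trend to genes reaching 1 FPKM in 2 or more libraries of a line. Tests were two-sided, with p adjusted by Benjamini and Hochberg and a threshold of 0.05, each line alone and, for the difference between lines, over both tables. The fits were tested on simulated data. Results were recomputed with another pseudocount (0.1, 5), another filter (none, 5 FPKM), another scaling (median-ratio, quantile, common sum), other moderation, a replicate block, a shared spread, a spline correction for length and GC content (4 degrees of freedom), and without each library. A pseudocount understates changes of low genes. Low values gave no read steps, so no count model or counting interval was used.

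The members and lists were chosen with earlier results of these data known. The text names NAT10 and gives values per library for the 10 highest members of a line, for called members with a log2 change of at least 1, and for members called between lines, with up to 4 genes per pathway list. A gene that this rule names is not reported here. Transcript lengths and GC contents came from a GENCODE annotation of GRCh38, with 97.9% of the 143B genes and 98.0% of the HOS genes matched by name. They were medians over the protein-coding transcripts of a gene, or over all its transcripts where none was protein-coding. Upstream sequences are from RefSeq on GRCh38.p14. Genes were not screened for near-identical copies.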

Additional observations from a re-analysis of the deposited data

Results flagged for a closer look

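The change in sgNAT10 against NC differed between 143B and HOS, by the test of the difference in the joint limma fit, for 23 of the 34 members tested. The values are log2(FPKM + 1) changes in 143B minus those in HOS.

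Among the chains, the difference was -3.60 for COL13A1, -2.81 for COL4A2, -2.63 for COL6A3, -2.49 for COL18A1, -1.98 for COL12A1, -1.97 for COL4A1 and -1.78 for COL9A3. It was -1.41 for COL9A2, -1.33 for COL5A1, -1.29 for COL1A1 and -1.10 for COL6A1. COL9A3 fell in both lines and differed in the size of the fall, whereas COL13A1, COL4A2, COL6A3, COL18A1, COL12A1 and COL5A1 were called in opposite directions.

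Among the modifiers, the difference was -3.37 for LOXL2, -2.70 for CRTAP, -1.98 for PLOD3, -1.72 for P4HA2, -1.68 for LOXL3 and -1.65 for PCOLCE. It was -1.38 for P3H2, -1.33 for BMP1, -1.29 for PLOD1, -1.18 for LOX and -0.87 for COLGALT1. PPIB alone was called with a higher change in 143B, by 0.98. The part of the unlike NAT10 levels of the lines in these differences was not tested.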

How the results depend on the processing

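The median change of all genes was -0.25 in 143B and 0.19 in HOS, -0.02 and -0.01 with median-ratio scaling, and -0.53 and 0.37 on rescaling to a common sum. Without a read count per gene, the precision of low chains is not known. Calls of 143B members higher, 1 in the fit reported, numbered 0 with a filter at 5 FPKM, 3 with quantile normalization, 2 with a spread shared by all 8 libraries and 8 with the length and GC correction. Calls of HOS members higher (24) numbered 12 with that correction and 6 with the shared spread. HOS calls lower (7) numbered 19 with the correction, 2 with the shared spread and 4 with a filter at 5 FPKM. Over all genes, 4370 of 11419 were called in either direction in 143B and 8195 of 11957 in HOS in the fit reported. With the correction these were 6184 of 11224 and 7799 of 11773, and with the shared spread 5553 and 1864 of 10655. Members whose 143B change was called above that of HOS (1) numbered 0 on a common sum, 3 with median-ratio scaling, 2 with quantile normalization and 9 with the correction.

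The length and GC correction turned the sign of COL5A1 in 143B (0.14). In HOS it turned COL18A1 (-0.37), COL1A2 (-0.054), COL5A1 (-0.0723), COL6A3 (-0.0601), PCOLCE (-0.0093), COL5A3 (-0.19), LOXL4 (-0.19) and P3H3 (-0.0028), and between the lines BMP1 (0.0519), COL1A1 (0.13), COL5A1 (0.21) and COL6A1 (0.30). The signs turned to the same values with the replicate block added to it.

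Leaving out each library gave 0 to 1 calls higher and 11 to 20 lower in 143B, 19 to 27 higher and 5 to 9 lower in HOS, and 0 to 3 above and 18 to 23 below between the lines. Where this left 1 library in a group, it was assumed to vary like the other group.

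The labels tie a replicate number to no batch or culture, so libraries were not treated as pairs. Deviations of same-numbered libraries correlated at 0.61 in 143B and -0.11 in HOS, and the block raised the calls over all genes of 143B from 4370 to 7652. With the replicate block, 3 members were called higher and 21 lower in 143B, 23 and 6 in HOS, and 1 above and 26 below between the lines. With the block and the correction, these were 8 and 17, 12 and 20, and 9 and 18. A crossed block in HOS, chosen after seeing the data, gave 24 and 7. The cause was not tested for any of these shifts, except that the filter at 5 FPKM left fewer members to test.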

Other observations

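Chondrocyte, epithelial, endothelial and blood genes were mostly at low levels. In the controls, CD68 in both lines, SOX9 and TIE1 in 143B and EPCAM in HOS (18.2 and 15.6 FPKM) stood above the others listed. CD68, a lysosomal protein of macrophages that many lines express, went from 126 and 103 to 50.2 and 45.6 FPKM in 143B, where CD14 also fell and LYZ, lysozyme, went from 0.69 and 1.3 to 7.33 and 6.89 FPKM (log2 2.04). None of these was called in HOS. SOX9, the cartilage transcription factor that drives COL2A1 in chondrocytes, was not called in 143B, at 13.7 and 27.8 against 8.04 and 17.6 FPKM, and went from 2.92 and 2.90 to 11.0 and 10.5 FPKM in HOS (log2 1.59). COMP, a cartilage matrix protein, was listed in 143B alone and MATN3 in HOS alone. TIE1 was the 1 endothelial marker listed in 143B, where it was not called, at 44.04 and 39.1 against 40.85 and 29.05 FPKM. In HOS 4 of 7 were listed, at summed levels of 2.42 to 6.27 FPKM. Of the 3 tested there, 2 rose and 1 fell, with TIE1 going from 0.22 and 0.46 to 3.69 and 4.07 FPKM (log2 1.87). Of 7 epithelial markers, 2 were listed in 143B and 3 in HOS.

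Of the mesenchymal and osteosarcoma markers, 6 of 8 tested fell and none rose in 143B, and 7 of 10 rose and none fell in HOS, against 25.4% of all genes lower in 143B and 45.5% higher in HOS. With median-ratio scaling 4 fell and 2 rose in 143B and 6 rose in HOS. With quantile normalization 5 fell and 2 rose in 143B, and with the length and GC correction 4 fell and 1 rose there, while 6 rose and 1 fell in HOS. Their summed FPKM went from 1477 and 1898 to 555 and 856 in 143B and from 1250 and 1381 to 1579 and 1599 in HOS. The part of these shifts in the collagen changes was not tested.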
